A study of Mus musculus with 11 samples.

Results

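The genes of 10 complement components, *C1qa*, *C1qb*, *C1qc*, *C1ra*, *C1s1*, *C2*, *C3*, *C4b*, *Cfb* and *Cfp*, were examined in the skin and small intestine of mice with psoriasis-like skin inflammation. They were taken by gene symbol from a table of 45777 genes, in which all 10 were found. BALB/c mice aged 8 to 10 weeks had their backs shaved, and every day for 5 to 8 days the back and the right ear received cream containing imiquimod (IMQ), which activates the endosomal receptor TLR7, or Vaseline as the vehicle. The daily amount was 62.5 mg of a cream with 5% IMQ. The skin was represented by 3 control and 3 IMQ libraries (replicates 1 to 3 and 4 to 6) and the small intestine by 3 control and 2 IMQ libraries (replicates 7 to 9 and 10 to 11). The labels do not state which tissues came from one mouse, or the number of days and the sex of each mouse. RNA was taken from whole tissue, so the gene levels are averages over all cell types, and more cells of a type cannot be told apart from more RNA per cell.

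Complement is a cascade of plasma proteins that marks microbes and dying cells for removal and recruits inflammatory cells. In the classical pathway, C1q, assembled from the products of *C1qa*, *C1qb* and *C1qc*, binds antibody or other targets and activates the proteases C1r and C1s, which cleave C4 and C2 into a convertase for C3. In the alternative pathway, factor B forms another C3 convertase, which properdin, the product of *Cfp*, stabilizes. The liver makes most of the circulating components, whereas C1q is made mainly by macrophages and dendritic cells, properdin by myeloid cells, and C3 and factor B also by epithelial cells and fibroblasts.

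In mm10 (GRCm38) the C1q genes lie next to each other on the minus strand of chromosome 4, *C1qb* (Entrez Gene 12260) from 136880126 to 136886200, *C1qc* (12262) from 136889801 to 136892936 and *C1qa* (12259) from 136895916 to 136898844. On chromosome 6, *C1ra* (50909) extends from 124512621 to 124523440 on the plus strand and *C1s1* (50908) from 124530344 to 124542392 on the minus strand. Chromosome 17 holds *C4b* (12268, 34728139 to 34743902), *Cfb* (14962, 34856374 to 34862514), *C2* (12263, 34862602 to 34882100) and, farther away, *C3* (12266, 57203967 to 57228136), all on the minus strand. *Cfp* (18636) is on the minus strand of chromosome X from 20925454 to 20931555. *C1ra*, *C1s1* and *C4b* have the close paralogs *C1rb*, *C1s2* and *C4a*, with which reads can be shared, so their values are uncertain. *Zbtb12* overlaps *C2* on the opposite strand over 2618 bases and had an FPKM of 1.49 to 4.69. The gene *Gm20547* of the annotation spans *C2* and *Cfb*, and the antisense gene *Gm16567* overlaps *C1s1*. The sources do not state how strand and shared reads were handled. No gene of the annotation overlapped a C1q gene.

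RefSeq (GRCm38.p6) gave promoter sequences for 6 of the 10 genes. The 250 bases before the start of transcription are shown, 5′ to 3′ on the strand of the gene, for *C1qb*, which had the largest fold change of the 10 genes in the small intestine, for *Cfp*, which had the largest in the skin, and for *C3*, the component on which the pathways converge. They correspond to chr4:136886201-136886450, chrX:20931556-20931805 and chr17:57228137-57228386, all on the minus strand, and capitals mark the only motif match in them.
C1qb: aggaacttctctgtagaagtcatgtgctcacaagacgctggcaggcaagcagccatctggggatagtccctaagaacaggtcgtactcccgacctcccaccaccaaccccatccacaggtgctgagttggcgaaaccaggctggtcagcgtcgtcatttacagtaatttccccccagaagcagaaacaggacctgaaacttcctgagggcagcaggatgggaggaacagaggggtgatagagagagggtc
Cfp: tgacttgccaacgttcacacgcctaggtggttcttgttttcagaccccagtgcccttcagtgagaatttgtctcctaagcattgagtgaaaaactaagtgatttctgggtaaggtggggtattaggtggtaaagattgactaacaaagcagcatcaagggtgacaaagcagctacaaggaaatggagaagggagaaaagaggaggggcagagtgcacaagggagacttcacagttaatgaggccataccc
C3: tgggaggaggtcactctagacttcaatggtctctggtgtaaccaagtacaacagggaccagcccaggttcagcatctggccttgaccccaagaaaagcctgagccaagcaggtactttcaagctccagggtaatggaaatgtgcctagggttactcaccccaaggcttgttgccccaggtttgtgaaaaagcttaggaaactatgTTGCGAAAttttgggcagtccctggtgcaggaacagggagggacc
Both strands were searched for the motifs GAAANNGAA (IRF), TTCNNNGAA (STAT), GAGGAAG (PU.1), TTGCNNAA (C/EBP) and GGGANTTCC (NF-kappaB). The capitals in *C3* are a match to the C/EBP letters that begins 45 bases before the start. Among the other promoters searched, *C1qc* had the PU.1 letters. *C1s1* had the C/EBP letters in only 1 of its 2 promoter entries, beginning 242 bases before the start, near the far end of the window. Of all 32851 promoters cut to the same length, 7.13% held the IRF, 7.02% the STAT, 10.6% the PU.1, 9.56% the C/EBP and 1.43% the NF-kappaB letters. A match describes the letters in this window and does not show that a factor binds there.

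The libraries held between 44995414 and 58526384 counts. The tissues matched their labels, with an FPKM (fragments scaled by transcript length and library size) of the keratinocyte gene *Krt5* of at least 1158 in skin and at most 0.175 in small intestine, and of the enterocyte gene *Vil1* of at least 635 in small intestine and at most 5.79 in skin. That highest skin value of *Vil1* belonged to skin control replicate 2, in which intestinal epithelial markers reached 1.63% of their level in control small intestine, against 0.0492% to 0.0988% in the other skin libraries. Small intestinal RNA at this share would make up 5.15% of the *Cfb* level of that library and 0.196% to 1.23% of the level of the other 9 genes. Albumin, the defining hepatocyte transcript, had an FPKM of at most 3.13 in skin and 0.133 in small intestine. *Cps1*, listed with the hepatocyte markers, had 155 to 186 in control small intestine and 127 to 134 after IMQ. Of the same list, *Ahsg* and *Fgb* had 0 in every small intestine library and *Serpina1c* at most 0.390. The level of *Cps1* was therefore not read as liver RNA in this tissue.

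The first comparison asked which components changed in the skin to which IMQ was applied. The 3 C1q genes, *Cfp* and *Cfb* rose, and the other 5 genes were not called. Genes were called at a Benjamini-Hochberg adjusted p under 0.05 in the quasi-likelihood test of edgeR, and 5 of the 10 passed. Of all 20512 genes tested, 6.74% were called in either direction and 4.05% were called higher. The median log2 fold change was 1.05 over the 10 genes and -0.01 over all genes.

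Among the recognition subunits, *C1qa* had an FPKM of 92.8, 70.1 and 63.4 in control skin and of 158, 181 and 240 in IMQ-treated skin. *C1qb* measured 67.5, 47.5 and 45.7 in control mice and 134, 149 and 186 in IMQ-treated mice. For *C1qc* the control values were 84.3, 65.0 and 52.0, and the IMQ values 155, 175 and 215. Every IMQ library was above every control library for all 3 genes, control replicate 1 was the highest control and IMQ replicate 6 the highest IMQ library throughout. The log2 fold changes on the normalized counts were 1.40 for *C1qa* (standard error 0.20, adjusted p = 0.0122), 1.59 for *C1qb* (0.19, adjusted p = 0.00713) and 1.48 for *C1qc* (0.20, adjusted p = 0.0117). They ranked 618th, 476th and 555th from the top among the 20512 genes tested. Without IMQ replicate 5, the adjusted p was 0.0552 for *C1qa* and 0.0550 for *C1qc*, so that both calls were lost, whereas *C1qb* was called in all 13 alternatives.

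The serine protease genes of the C1 complex were less changed. The FPKM of *C1ra* was 27.3, 35.0 and 35.7 in control skin and 32.8, 36.4 and 56.5 in IMQ-treated skin, and that of *C1s1* was 33.6, 44.7 and 44.5 against 48.3, 56.3 and 83.1. The groups overlapped for *C1ra* and were separate for *C1s1*, with IMQ replicate 6 the highest library for both. Neither was called, with log2 fold changes of 0.40 (standard error 0.22, adjusted p = 0.328) and 0.65 (0.22, adjusted p = 0.136). The components they cleave were not called either. *C4b* had an FPKM of 35.0, 25.7 and 20.4 in control skin and 29.5, 27.1 and 44.2 in IMQ-treated skin, with a log2 fold change of 0.36 ± 0.25 (standard error) and an adjusted p = 0.449. *C2* had values of 7.30, 11.1 and 9.25 against 9.52, 9.02 and 11.7, with a log2 fold change of 0.17 ± 0.20 (standard error) and an adjusted p = 0.663. Control and IMQ libraries overlapped for both genes.

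*C3*, the central component, measured 55.2, 74.8 and 42.3 FPKM in control skin and 81.2, 101 and 143 in IMQ-treated skin. The groups were separate, but the control libraries differed among themselves by more than the gap to the IMQ group. Its log2 fold change was 0.94 (standard error 0.29) and was not called (adjusted p = 0.109). The Wald test of DESeq2 called it (adjusted p = 0.0197), as did edgeR without control replicate 2, the control library with the highest *C3*, where the log2 fold change was 1.22 (adjusted p = 0.0377). *Cfb*, which encodes factor B, measured 15.6, 18.4 and 13.6 FPKM in control skin and 24.7, 39.4 and 41.1 in IMQ-treated skin. Its log2 fold change was 1.16 (standard error 0.21, adjusted p = 0.0265). This call was kept in 8 of 13 alternatives and lost without control replicate 1 or 3 (adjusted p = 0.107 and 0.0629), without IMQ replicate 5 or 6 (0.113 and 0.0768), and in limma on log2(FPKM + 1) (0.0545). *Cfp*, the properdin gene, measured 20.4, 13.7 and 14.8 FPKM in control skin and 43.9, 49.1 and 56.3 in IMQ-treated skin, with each IMQ library above all controls. It had the largest log2 fold change of the 10 genes in the skin, 1.66 (standard error 0.17, adjusted p = 0.00432), which was called in all 13 alternatives. In total, 7 of the 10 genes had higher FPKM in every IMQ library than in any control library, 0 had lower and 3 overlapped, whereas the groups were separate in either direction for 27.2% of all genes tested.

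**Figure D1:**
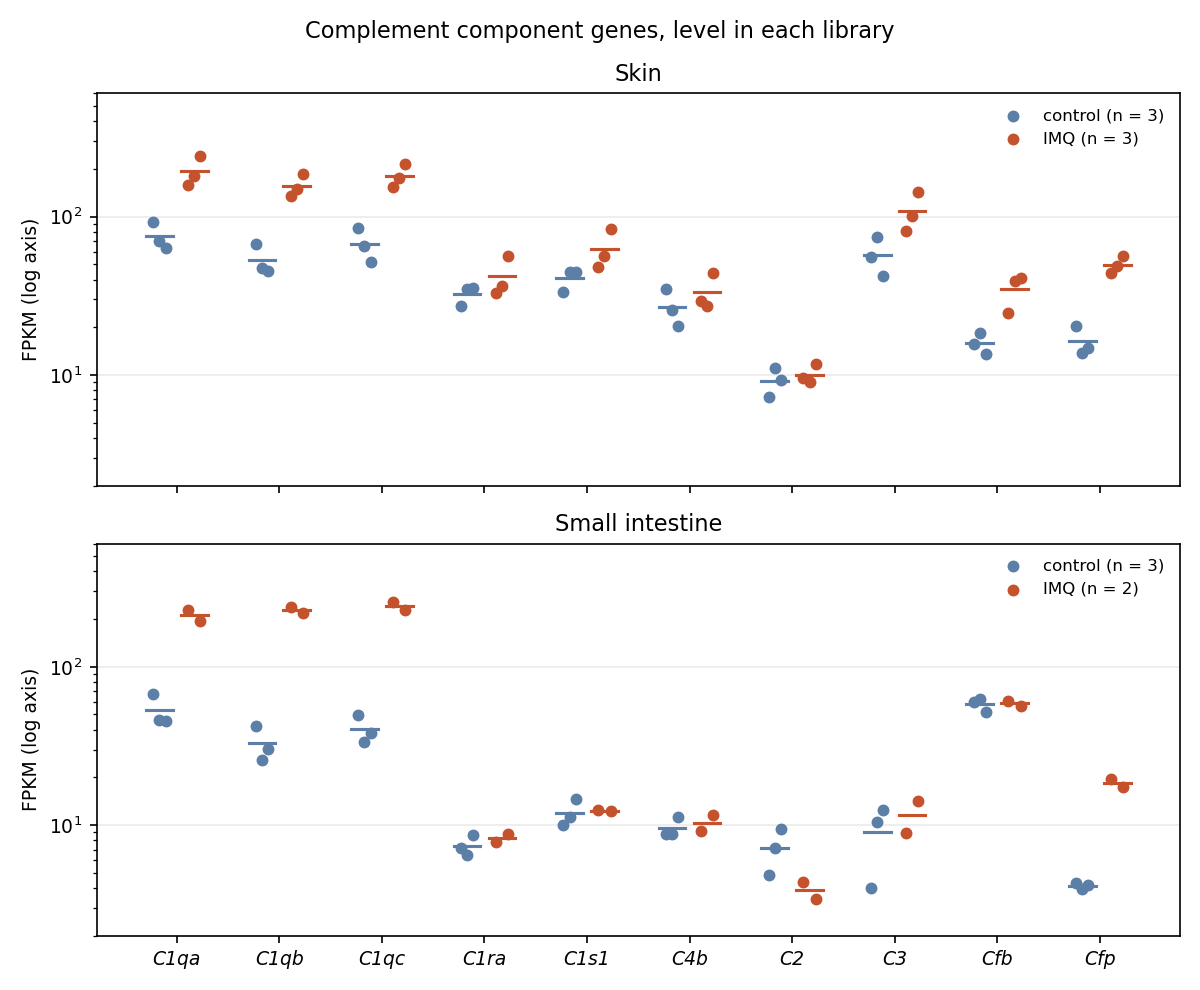
FPKM of the 10 genes in each library on a log axis, skin above and small intestine below, with each point a library and each bar the mean of its group. The 3 C1q genes and *Cfp* are higher in all IMQ libraries of both tissues, the IMQ libraries of *Cfb* lie above the controls in the skin and within their range in the small intestine.

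The second comparison asked whether the same components changed in the small intestine, to which no cream was applied. The study detected IMQ in serum and intestine after topical treatment, so this tissue may have held the drug. *C1qa*, *C1qb*, *C1qc* and *Cfp* rose by more than 2 on the log2 scale, and the other 6 genes were not called. These 4 of 10 genes compare with 2.95% called among the 19965 genes tested there, or 2.77% called higher. The median log2 fold change was 0.34 over the 10 genes and -0.02 over all genes.

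The FPKM of *C1qa* was 67.2, 46.3 and 45.5 in control small intestine and 229 and 196 after IMQ. For *C1qb* the values were 42.5, 25.9 and 30.4 in control mice and 238 and 219 after IMQ. *C1qc* rose from 49.9, 33.4 and 38.0 to 257 and 228. The IMQ libraries lay far above the range of the controls, of which replicate 7 was the highest for each gene. On the counts, the log2 fold changes were 2.04 for *C1qa* (standard error 0.21, adjusted p = 0.00223), 2.83 for *C1qb* (0.23, adjusted p = 0.000864) and 2.61 for *C1qc* (0.20, adjusted p = 0.000708), which ranked 247th, 94th and 132nd of the 19965 genes tested. *Cfp* had an FPKM of 4.32, 3.94 and 4.17 in control mice and 19.5 and 17.4 after IMQ. Its 3 control values lay closer together than those of any other of the 10 genes, and its log2 fold change of 2.19 (standard error 0.14) had the lowest adjusted p of the 10 (0.000417). All 4 calls were kept in each of the 12 alternatives, which include each of the 5 libraries left out in turn.

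The other 6 genes had smaller differences. *C1ra* measured 7.12, 6.46 and 8.69 FPKM in control small intestine and 7.86 and 8.74 after IMQ, and *C1s1* measured 9.94, 11.2 and 14.7 against 12.4 and 12.3. Their log2 fold changes were 0.20 (standard error 0.19, adjusted p = 0.783) and 0.08 (0.19, adjusted p = 0.928). *C4b* had values of 8.81, 8.80 and 11.2 against 9.15 and 11.6, with a log2 fold change of 0.16 ± 0.20 (standard error) and an adjusted p = 0.849. The groups overlapped for these 3 genes, and for *C1s1* and *C4b* the sign turned when single libraries were left out. *C2* was the only one of the 10 genes with both IMQ libraries below all controls, at 4.37 and 3.40 FPKM against 4.83, 7.17 and 9.39. Its log2 fold change was -0.84 (standard error 0.29), with an unadjusted p of 0.0218 from edgeR's quasi-likelihood test and an adjusted p of 0.263. *C3* measured 4.02, 10.5 and 12.5 FPKM in control mice and 8.94 and 14.1 after IMQ, and its control replicate 7 was the lowest library. The log2 fold change of 0.48 had the largest standard error of the 10 genes in this tissue (0.43, adjusted p = 0.765) and ranged from 0.04 to 0.81 over the alternatives. *Cfb* had 60.2, 62.4 and 51.5 FPKM in control mice and 61.0 and 56.7 after IMQ, so that the IMQ values lay inside the range of the controls (log2 fold change 0.04, standard error 0.13, adjusted p = 0.950). Altogether 4 genes were above, 1 was below and 5 overlapped the controls, whereas the groups were separate in either direction for 29.9% of all genes tested.

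The third comparison asked whether the response differed between the tissues, from the interaction term of a joint model of the 11 libraries. EdgeR called 0 of the 10 genes, against 2.55% of the 18108 genes tested, although 5 of the 10 had an unadjusted p under 0.05. The differences, small intestine minus skin on the log2 scale, were 1.24 for *C1qb* (standard error 0.32, adjusted p = 0.0705), 1.14 for *C1qc* (0.31, adjusted p = 0.0884) and -1.11 for *Cfb* (0.28, adjusted p = 0.0683). The Wald test of DESeq2 called these 3 genes, with adjusted p-values of 0.00975, 0.0179 and 0.00856, and limma on log2(FPKM + 0.01) or log2(FPKM + 1) called 0 of the 10. Leaving out skin control replicate 3 gave a call for *C1qb* and *C1qc* (adjusted p = 0.0491 and 0.0326), and leaving out small intestine control replicate 7 gave one for *C1qb* (0.0283). *Cfb* was called without skin control replicate 2 (0.0215) or without skin IMQ replicate 4 (0.0312). For *C2* the difference was -1.001 (standard error 0.38, adjusted p = 0.208), for *C1qa* 0.64 (0.31, adjusted p = 0.324) and for *Cfp* 0.53 (0.22, adjusted p = 0.238). The remaining 4 genes had differences from -0.56 to -0.19.

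**Figure D2:**
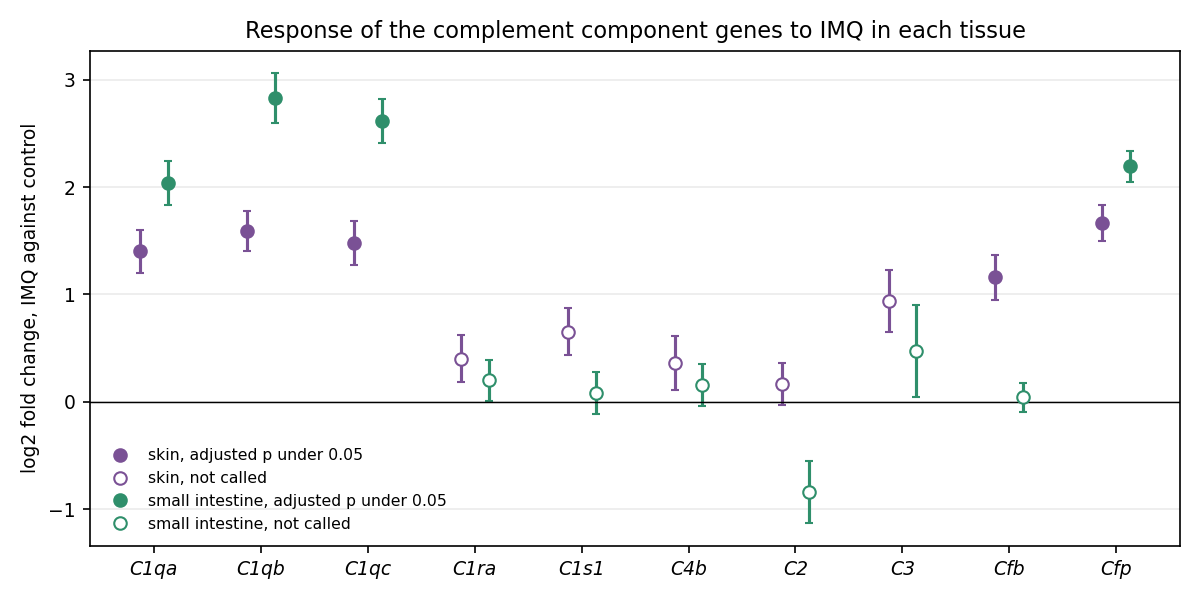
Log2 fold change between IMQ and control libraries for each of the 10 genes in the skin (purple) and the small intestine (green), with bars of 1 standard error and filled points for an adjusted p under 0.05. The 3 C1q genes and *Cfp* are the filled points in both tissues, and *Cfb* is filled in the skin, at 1.16, against 0.04 in the small intestine.

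Levels were next compared between genes and between the tissues of control mice, using FPKM, which accounts for transcript length. In control skin the order was *C1qa* (75.4 ± 15.4, SD, n = 3), *C1qc* (67.1 ± 16.3), *C3* (57.4 ± 16.4), *C1qb* (53.6 ± 12.1), *C1s1* (40.9 ± 6.35), *C1ra* (32.6 ± 4.67), *C4b* (27.0 ± 7.38), *Cfp* (16.3 ± 3.60), *Cfb* (15.8 ± 2.39) and *C2* (9.21 ± 1.89). The ranges of neighbours in this order overlapped except between *C1qb* and *C1s1*, between *C4b* and *Cfp*, which almost touched, and between *Cfb* and *C2*. In control small intestine *Cfb* had the highest mean (58.0 ± 5.74, SD, n = 3), followed by *C1qa* (53.0 ± 12.3), *C1qc* (40.4 ± 8.53) and *C1qb* (32.9 ± 8.60), which overlapped with their neighbours. After a gap came *C1s1* (11.9 ± 2.44), *C4b* (9.60 ± 1.37), *C3* (9.02 ± 4.45), *C1ra* (7.42 ± 1.15) and *C2* (7.13 ± 2.28), again with overlap between neighbours. *Cfp* was lowest, at 4.14 ± 0.188. After IMQ the C1q genes held the 3 highest places in both tissues, and in the small intestine *Cfp* went from place 10 to place 5 (18.5 ± 1.46, SD, n = 2). There the lowest of the 6 C1q values was 196, more than any value of the other genes, of which *Cfb* was the highest.

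In the same model of 11 libraries, 6 of the 10 genes differed between control small intestine and control skin, where 57.0% of all genes tested were called. *Cfb* was higher in the small intestine, by 2.28 on the log2 scale (standard error 0.19, adjusted p = 2.29e-06). Lower there were *C3* (-2.31, adjusted p = 0.000564), *C1ra* (-1.68, adjusted p = 6.65e-05), *Cfp* (-1.51, adjusted p = 7.07e-06), *C1s1* (-1.32, adjusted p = 0.000405) and *C4b* (-1.04, adjusted p = 0.00371). The C1q genes and *C2* were not called, with differences of -0.05 for *C1qa*, -0.24 for *C1qb*, -0.27 for *C1qc* and 0.08 for *C2*. The values of this comparison depend on the scaling, since the median of all genes was -0.01 on the normalized counts and -0.45 on log2(FPKM + 0.01), and the C1q genes had differences of -0.51, -0.71 and -0.72 on the latter and were called lower in the small intestine. For *C2* the sign turned with that scaling, to -0.40. Relative to the median of all genes, the 6 called genes kept their directions. The FPKM of *C3* was 3.11 to 4.08 times that of *Cfb* in control skin and 2.55 to 3.47 times in IMQ-treated skin, but 0.0667 to 0.243 times in control small intestine and 0.147 to 0.248 times after IMQ. The implied transcript length, from count and FPKM, varied between libraries by 10.6% for *C3* and 5.65% for *Cfb*, and by at most 2.65% for the other genes.

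The products of the C1q genes assemble into one protein, and the proportions of their transcripts were compared within each library. The ratio of *C1qa* to *C1qb* FPKM was 1.37, 1.47 and 1.39 in control skin and 1.18, 1.22 and 1.29 after IMQ. In the small intestine it was 1.58, 1.79 and 1.497 in control mice and 0.964 and 0.894 after IMQ. All IMQ libraries were thus below all control libraries of their tissue. On the log2 scale the ratio was lower by 0.20 in the skin (two-sided exact permutation test, p = 0.1) and by 0.80 in the small intestine (p = 0.2, two-sided exact permutation test). This test doubles the one-sided p, and these are the smallest p-values it can give for groups of these sizes. The ratio of *C1qc* to *C1qb* changed less, from 1.14 to 1.37 in control skin to 1.15 to 1.18 after IMQ (log2 difference -0.11, exact permutation p = 0.4) and from 1.17 to 1.29 in control small intestine to 1.04 to 1.08 after IMQ (-0.22, exact permutation p = 0.2). The ratio of *C1s1* to *C1ra* was 1.23 to 1.28 in control skin and 1.47 to 1.55 after IMQ, and overlapped between the groups in the small intestine.

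Macrophages, the main source of C1q, were followed by 10 marker genes. The summed FPKM of these markers was 140 to 212 in control skin and 327 to 369 after IMQ, and 4 of the 10 were called higher (*Adgre1*, *Aif1*, *Cd14* and *Fcgr1*). In the small intestine the sum was 70.2 to 84.3 in control mice and 173 to 185 after IMQ, with 4 of 10 called higher (*Adgre1*, *Aif1*, *Cd68* and *Fcgr1*). The summed FPKM of the 3 C1q genes divided by that of the 10 markers was 1.14 to 1.15 in control skin and 1.30 to 1.74 after IMQ, and 1.41 to 1.89 in control small intestine and 3.72 to 3.92 after IMQ. Taken marker by marker, the ratio in the skin was above the controls in all IMQ libraries for 4 markers (*Csf1r*, *Cd68*, *Mrc1* and *Mertk*), below them for 3 (*Adgre1*, *Aif1* and *Cd14*) and overlapping for 3. In the small intestine it was above the controls for 9 of 10 markers. It overlapped for *Cd68*, at 18.7 to 19.6 in control mice and 18.4 to 18.9 after IMQ. The C1q genes there rose by 2.04 to 2.83 on the log2 scale, and the 10 markers by 0.05 (*Mrc1*) to 2.54 (*Cd68*). Genes that rose less than C1q tend to give a ratio above the controls, whether or not they mark macrophages. How many of all genes would do so was not tested, so the 9 of 10 has no background to be set against. The direction in the skin depended on the marker used.

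**Figure D3:**
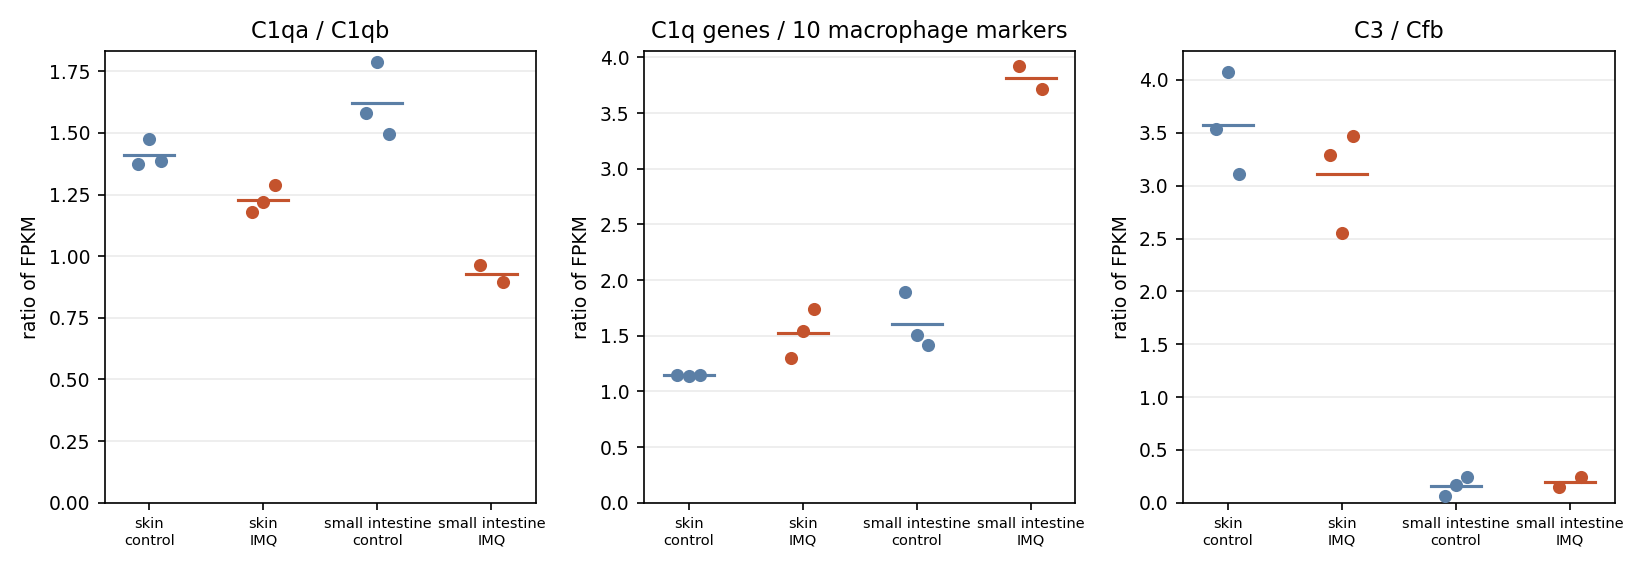
Ratios of FPKM within each library for *C1qa* to *C1qb*, the sum of the 3 C1q genes to that of 10 macrophage markers, and *C3* to *Cfb*, by tissue and treatment, with points for libraries and bars for group means. *C1qa* to *C1qb* is lower in all IMQ libraries of each tissue, C1q to macrophage markers reaches 3.72 to 3.92 in the IMQ-treated small intestine, and *C3* to *Cfb* is above 2.5 in every skin library and below 0.25 in every small intestine library.

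Neutrophil markers, of which 6 of 8 were tested in each tissue, rose from a summed FPKM of 13.7 to 15.3 in control skin to 7039 to 8600 after IMQ, with 6 called higher. Nearly all of the sum in IMQ-treated skin came from *S100a8* (3120 to 3782) and *S100a9* (3885 to 4766), whereas *Csf3r* had 17.8 to 20.4 and *Cxcr2* 9.65 to 15.9, against 1.90 to 2.84 and 0.726 to 2.63 in control skin. The neutrophil markers had a sum of 7.25 to 8.17 in control small intestine and 15.0 to 15.6 after IMQ, with 2 called higher. Most of this rise came from *Csf3r*, at 0.633 to 1.02 FPKM in control mice and 6.97 to 7.80 after IMQ. *Mmp8*, also called, reached at most 0.104. Not called were *S100a9*, *Cxcl2*, *Retnlg* and *Cxcr2*, with log2 fold changes of 2.24, 0.33, -0.07 and -0.25. Of 5 eosinophil markers 2 were tested in skin and 4 in small intestine, of which 0 were called, and *Epx* was tested in neither tissue. Their sum did not exceed 3.32 FPKM. Among 5 endothelial markers 3 were called higher in skin and 1 in small intestine. Of 8 fibroblast markers 0 were called in either tissue, with sums of 1905 to 3690 in control skin, 2001 to 2334 after IMQ, 157 to 174 in control small intestine and 136 to 168 after IMQ. Of 6 keratinocyte markers 1 was called higher in the skin. Of 8 intestinal epithelial markers 0 were called in the small intestine, where their median log2 fold change was -0.21. Their sum of 8367 to 12867 in control mice and 14382 to 16153 after IMQ followed *Apoa4*, at 1078 to 3654 and 6630 to 10231 FPKM. Among T cell markers, 5 in all, 0 were called in either tissue, and of 5 B cell markers 2 were tested in the skin, of which 1 was called higher, at a sum of at most 5.25 FPKM. Of 6 hepatocyte markers 3 were tested in the skin, of which 1 was called higher, while the sum of the 6 was 3.98 to 5.97 FPKM in control mice and 1.94 to 2.11 after IMQ. In the small intestine 2 were tested and 0 called. Their sum there, 156 to 186 FPKM in control mice and 127 to 135 after IMQ, was nearly all *Cps1*. It was not read as a level of hepatocyte RNA. All 5 adipocyte markers were tested in skin and 1 in small intestine, and 0 were called. The part of these cell types in the changes of the complement genes was not tested.

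The other genes of the system, 53 in all, were grouped by role. The skin had 40 of them tested, of which 5 were called higher and 1 lower, with a median log2 fold change of 0.28. Likewise 40 were tested for the small intestine, of which 4 were called higher and 1 lower, with a median of 0.19. All genes called higher were receptors, 5 of 10 tested in the skin and 4 of 9 in the small intestine. *C3ar1*, the receptor of the C3 cleavage product C3a, had an FPKM of 2.80 to 5.32 in control skin and 12.2 to 16.4 after IMQ (log2 fold change 1.96, adjusted p = 0.0102), and of 1.82 to 2.48 in control small intestine and 7.68 to 7.83 after IMQ (1.94, adjusted p = 0.00162). *Itgam* and *Itgb2* encode complement receptor 3, an integrin of neutrophils and macrophages. *Itgam* went from 3.999 to 7.90 FPKM to 42.0 to 45.5 in the skin (log2 fold change 2.94, adjusted p = 0.00321) and from 5.25 to 5.84 to 19.7 to 20.6 in the small intestine (1.88, adjusted p = 0.000362). *Itgb2* had log2 fold changes of 1.86 in the skin (adjusted p = 0.00736) and 3.43 in the small intestine (adjusted p = 0.000379). *Itgax*, which pairs with *Itgb2* in complement receptor 4, measured 2.80 to 6.70 FPKM in control and 4.04 to 5.15 in IMQ-treated skin (0.08, adjusted p = 0.917), but 6.54 to 8.70 in control and 44.2 to 59.2 in IMQ-treated small intestine (2.82, adjusted p = 0.000379). The response differed between the tissues for *Itgax* (interaction 2.75, adjusted p = 0.00995) and *Itgb2* (1.58, adjusted p = 0.0384), 2 of 33 genes tested, against 2.55% of all genes tested. The *Itgax* interaction was called in 16 of 17 alternatives and had an adjusted p of 0.0523 without small intestine IMQ replicate 10, whereas that of *Itgb2* was called in 7 of 17, with adjusted p-values up to 0.127.

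*C5ar1*, the receptor of the inflammatory fragment C5a, had an FPKM of 1.57 to 2.52 in control skin and 5.26 to 5.45 after IMQ (log2 fold change 1.45, adjusted p = 0.0121). Its small intestinal values were 0.784 to 1.38 and 1.28 to 1.97 (0.58, adjusted p = 0.608), and the difference between the tissues was not called (-0.86, adjusted p = 0.342). *C5ar2*, its second receptor, was low, at 0.0423 to 0.0874 FPKM in control and 0.247 to 0.461 in IMQ-treated skin (2.36, adjusted p = 0.0140). The calls of *C5ar1* and *C5ar2* were lost without skin IMQ replicate 4 (adjusted p = 0.0525 and 0.0517) or 5 (0.0646 for both), and that of *C5ar2* also without skin control replicate 1 (0.0657). *Vsig4*, a macrophage receptor of C3 fragments, had 9 to 15 counts in control skin and 10 to 56 after IMQ (1.68, adjusted p = 0.165), and was listed at 0 in all 5 small intestine libraries.

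**Figure D4:**
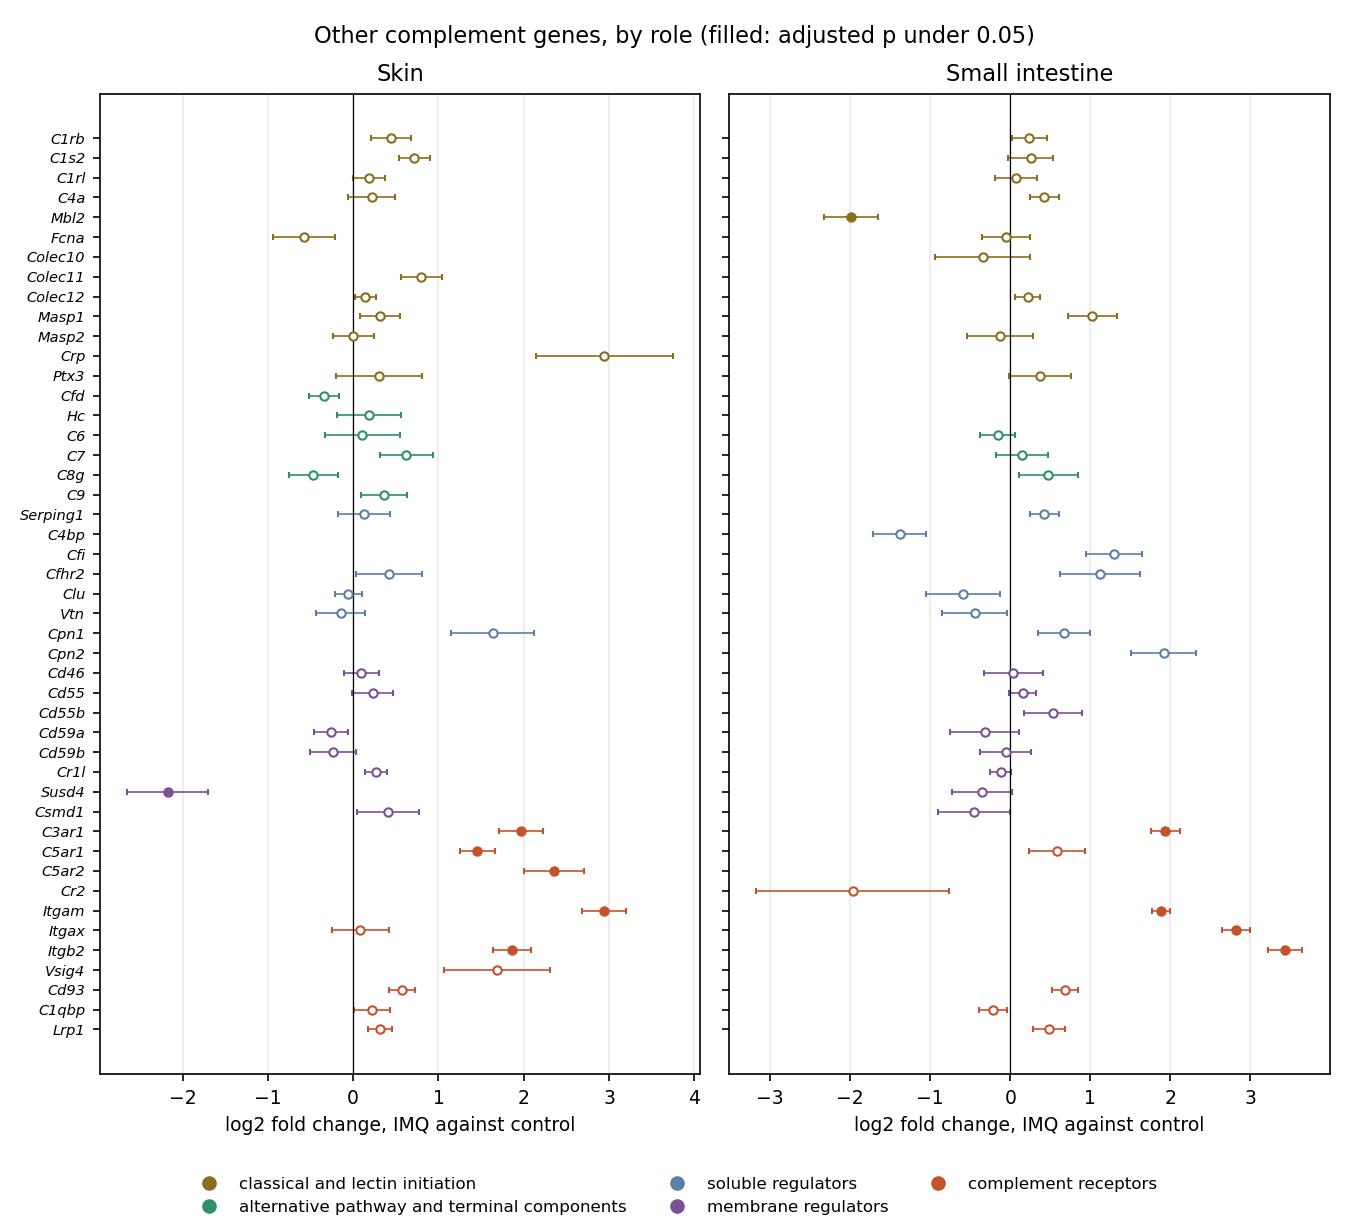
Log2 fold change between IMQ and control libraries with bars of 1 standard error for the other complement genes tested and reported here, by role, in the skin (left) and small intestine (right), where filled points have an adjusted p under 0.05 and genes with a count of 0 in a library of the tissue have no point. All filled points to the right of 0 are receptors, and those to the left are *Susd4* in the skin and *Mbl2* in the small intestine.

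Of 11 initiation genes tested in the skin 0 were called, against 6.74% of all genes. In the small intestine 1 of 11 was called, against 2.95%. This was *Mbl2*, which encodes a mannose-binding lectin and fell from 5.23 to 9.60 FPKM to 1.45 to 2.07 (log2 fold change -1.99, adjusted p = 0.0239). Its call was kept in 7 of 11 alternatives. It was lost without small intestine control replicate 9 (adjusted p = 0.0531) and in limma on log2(FPKM + 1) (0.0572). The call was also not kept without IMQ replicate 10 or 11, each of which leaves 1 IMQ library (log2 fold changes -2.20 and -1.81). The paralog *C1s2* had a log2 fold change of 0.72 in the skin (adjusted p = 0.0672), close to the 0.65 of *C1s1*, and *C1rb* had 0.44 (adjusted p = 0.320), close to the 0.40 of *C1ra*. *C4a* had 0.22 in the skin (adjusted p = 0.694) and 0.42 in the small intestine (adjusted p = 0.412).

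None of the alternative pathway and terminal genes was called, of 6 tested in skin and 3 in small intestine. The shares called over all genes were 6.74% and 2.95%. *Cfd*, which encodes factor D, the protease that cleaves factor B and is made by adipocytes, was the most abundant of the complement genes named here in the skin. Its FPKM was 544 to 682 in control and 415 to 546 in IMQ-treated skin (log2 fold change -0.34, adjusted p = 0.294), beside a summed FPKM of adipocyte markers of 274 to 544 and 252 to 311. *Cfd* of the small intestine had 0, 0 and 3 counts in control mice and 17 and 0 after IMQ and was not tested. *Hc*, the gene of C5, had at most 21 counts in skin (0.19, adjusted p = 0.813) and at most 5 in small intestine, where it was not tested.

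None of the soluble regulators was called, of 6 tested in skin and 9 in small intestine. Over all genes tested, 6.74% and 2.95% were called in these tissues. *Serping1*, the inhibitor of C1r and C1s, had an FPKM of 118 to 221 in control skin and 134 to 237 after IMQ (log2 fold change 0.12, adjusted p = 0.854). Both IMQ libraries of the small intestine, at 40.8 and 43.9, were above the controls, at 27.7 to 37.6 (0.43, adjusted p = 0.421). *Cfi*, the protease that inactivates C3b and C4b, had at most 10 counts in skin libraries, where it was not tested, and an FPKM of 1.73 to 3.30 in control and 4.38 to 7.10 in IMQ-treated small intestine (1.30, adjusted p = 0.137). Of the membrane regulators 1 of 7 tested was called in the skin and 0 of 8 in the small intestine, beside the same shares. That gene was *Susd4*, at 0.535 to 2.13 FPKM in control and 0.244 to 0.286 in IMQ-treated skin (-2.17, adjusted p = 0.0442), and its call was kept in 5 of 13 alternatives. The call was also lost without each skin IMQ replicate in turn and without skin control replicates 1 or 3, with adjusted p-values of 0.0798 to 0.157.

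Genes with the most similar pattern were sought among 14896 genes with a mean FPKM of at least 1, by Pearson's r of log2(FPKM + 1) over the 11 libraries, which fall into 4 groups and share their group differences, so r is given as a description. For the mean of the 3 C1q genes these were *Pld4* (r = 0.991), *Laptm5* (0.988), *Fcer1g* (0.987), *Lrrc25* (0.985) and *Fermt3* (0.984). *Fcer1g*, the signalling chain of Fc receptors, had an FPKM of 29.1 to 29.7 in control skin, 95.0 to 142 in IMQ-treated skin, 10.6 to 16.4 in control small intestine and 125 to 156 after IMQ. For *C3* they were *Ccr2* (r = 0.981), *C1s2* (0.976), *Fgl2* (0.973), *Fcgr2b* (0.973) and *Map1lc3b* (0.972). *Ccr2*, a chemokine receptor of monocytes, had 13.7 to 16.5 FPKM in control skin, 20.1 to 37.0 in IMQ-treated skin, 1.24 to 2.28 in control small intestine and 2.50 to 3.16 after IMQ. For *Ccr2* as for *C3*, all skin libraries were above all small intestine libraries.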

How the data were processed

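RNA of whole skin and small intestine was sequenced in 11 libraries made with a stranded mRNA kit, which were grouped by the tissue and treatment in their labels, and all columns of the table were matched to a sample. Per the labels and the study's methods, reads were trimmed (Trimmomatic), aligned to mm10 with HISAT2 2.1.0 and quantified with StringTie 2.1.3b. The authors deposited whole-number read counts per gene without normalization. The FPKM that the authors deposited are scaled by transcript length and library size, and the TPM that the authors deposited were not tested. How counts were made from the StringTie output, and how strand and multiply mapping reads were handled, is not given in the sources used here.

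Genes with at least 1 count in every library of a comparison were tested with edgeR 4.0.16 in R 4.3.3 (quasi-likelihood test, relative log expression, Benjamini-Hochberg adjustment over all genes tested, threshold 0.05), by tissue, and in one model of 11 libraries for the interaction and the control tissues. Standard errors are the log2 fold change divided by the square root of F. The procedure was run on simulated data with the same dispersion for all genes and no outlying library. That simulation cannot tell how calls depend on single libraries, as they do here. Alternatives were TMM normalization, DESeq2 1.42.0, the filterByExpr filter, no filter, limma 3.58.1 on log2(FPKM + 0.01) and log2(FPKM + 1), one model of all libraries and each library left out. The study used DESeq2. With many counts per gene, differences between libraries set the precision. Nothing states that replicates are separate mice. The p-values set differences against the spread between these libraries, which may not be the spread between mice. The 10 genes and all lists were chosen with earlier results of these data known. Named among the other complement genes are those called in a tissue and *Cfi*, *Cfd*, *Serping1*, *Hc*, *C3ar1*, *C5ar1*, *Vsig4*, *C1rb*, *C1s2* and *C4a*, and 1 further gene of that rule is not reported here. For pattern similarity, the 5 genes with the highest r are named. Of the table's genes, 45679 were matched to RefSeq GRCm38.p6 by Entrez Gene identifier.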

Additional observations from a re-analysis of the deposited data

How the results depend on the processing

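In the small intestine the calls of *C1qa*, *C1qb*, *C1qc* and *Cfp* were kept in all 12 alternatives, and in the skin those of *C1qb* and *Cfp* in all 13. Leaving out one library gave 2 to 6 of the 10 genes called in the skin (2 without IMQ replicate 5) and 0 to 2 in the interaction, for which DESeq2 called 3. DESeq2 called 10 of the other complement genes in either tissue, and leaving out one library gave 3 to 10 in the skin. Over all genes, DESeq2 called 3030 in the skin, 1206 in the small intestine and 1281 in the interaction, against 1382, 588 and 462. Limma on log2(FPKM + 1) called 894 in the skin, and the interaction without a filter gave 301. With one library left out the numbers were 258 to 2521 in the skin, 294 to 801 in the small intestine and 144 to 1072 in the interaction, and the cause was not tested. For genes that were not called, the log2 fold change turned sign when single libraries were left out, with a range of -0.017 to 0.29 for *C1s1*, -0.090 to 0.37 for *C4b* and -0.021 to 0.077 for *Cfb* in the small intestine, and of -0.35 to 0.055 for *C1ra* and -0.46 to 0.030 for *C4b* in the interaction. No paired analysis was possible because the libraries are numbered 1 to 11 and the groups share no number. The small intestine has 2 IMQ libraries, so leaving out one assumes that the other varies like the controls. Counts of at most 17 limit what can be said of *Cfd*, *Hc* and *Vsig4* in the small intestine and of *Cfi* in the skin.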
